A study of Mus musculus with 32 samples.

Results

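Mouse genes whose symbol is Gpr followed by a number encode mostly G protein-coupled receptors that were cloned before a ligand was known, and many of them are still orphan receptors. In lung RNA of 16 mice, 36 such genes had an Ensembl identifier of their own in the deposited table. Members were selected on their measured level: a gene was taken if it was above 0 in at least 3 of the 16 mice, which gave 29 members out of 36. These 29 belong to the 26305 genes with an Ensembl identifier in the series. GENCODE M21 lists 75 Gpr symbols of this form, and the other 39 are not analysed here.

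The mice were wild-type male C57BL/6J animals, 6 to 8 weeks old, in 4 groups of 4. The control group was healthy and received neither dust nor drug. The WTCPM group was exposed to World Trade Center particulate matter, dust collected at Ground Zero after the collapse of the towers. The rosoxacin group received WTCPM and 5 mg/kg of the quinolone antibiotic rosoxacin. The dexamethasone group received WTCPM and 0.1 mg/kg of the glucocorticoid dexamethasone. There was no group with a drug and no dust, so a drug can be compared only on top of the exposure.

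G protein-coupled receptors cross the membrane several times and, when a ligand binds outside, switch on a heterotrimeric G protein inside the cell, which raises or lowers cyclic AMP, calcium or other messengers. Regulators of G protein signalling (Rgs proteins) shorten the signal, and receptor kinases with arrestins end it. In lung, receptors of this class are known on leukocytes, endothelium, smooth muscle and epithelium, where they read acidity, lipids, metabolites and chemoattractants. Many orphan members are best known from brain.

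Levels are FPKM, in which the fragments of a transcript are divided by its length and by the size of the library, so they can be compared between genes. The values of a mouse are the mean of its 2 sequencing lanes, and n is the number of mice. FPKM summed over everything in a mouse lay between 704683 and 1329954, with a group mean of 836635 for control mice, 770770 for WTCPM mice, 1066174 for rosoxacin mice and 803303 for dexamethasone mice. Nearly all of that total lies in assembled loci without a gene name, and the genes with an Ensembl identifier held 0.114% of it, with a highest mean of 4.05 FPKM. RNA of a Gpr gene that was assigned to an unnamed locus would therefore not be in the levels below. In the column names, the S number of the rosoxacin mice is 1 to 4 and that of the other mice lies within 5 to 23. It is called the library number here, but the labels do not say what it stands for. Rosoxacin and this number cannot be told apart. Of 14 lists of cell type markers with 102 genes, 17 genes had an identifier of their own and 10 were tested. The lists of alveolar epithelium, macrophages, fibroblasts, B cells, T and NK cells, platelets and mesothelium had none, so the lung label could not be checked on its defining markers. The tested markers included Spdef of airway epithelium, Prox1 of lymphatic endothelium, Xcr1 of dendritic cells, Il5ra and Gata1 of eosinophils and their relatives, Lep and Hcar1 of fat, and Cxcr2 and Asprv1 of neutrophils. Asprv1 was the only marker that passed the test described below, and its calls were lost under several settings.

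Levels of the Gpr genes were low, as were those of all genes with an Ensembl identifier in this table. The mean over 16 mice was highest for Gpr65 at 0.957 FPKM and lowest for Gpr158 at 0.0037 FPKM. The median of the 29 means was 0.0716 FPKM, beside 0.0481 FPKM over the 8288 Ensembl genes above 0 in at least 3 mice. 14 members were above 0 in all 16 mice, and a mouse had between 21 and 26 of the 29 above 0. 13 members had a mean of at least 0.1 FPKM, the level at which genes were tested, and 16 lay below it. Membership rests on these levels, so their presence is a description. Just inside the rule was Gpr119, above 0 in 4 mice and at most 0.0226 FPKM. Just outside was Gpr142, above 0 in 1 mouse only, mouse 4 of the rosoxacin group, at 0.0448 FPKM. The other 6 outside, Gpr101, Gpr12, Gpr149, Gpr6, Gpr50 and Gpr139, were listed at 0 in every mouse. Of the 36 Gpr genes 80.6% met the rule, against 31.5% of all genes with an Ensembl identifier.

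**Figure D1:**
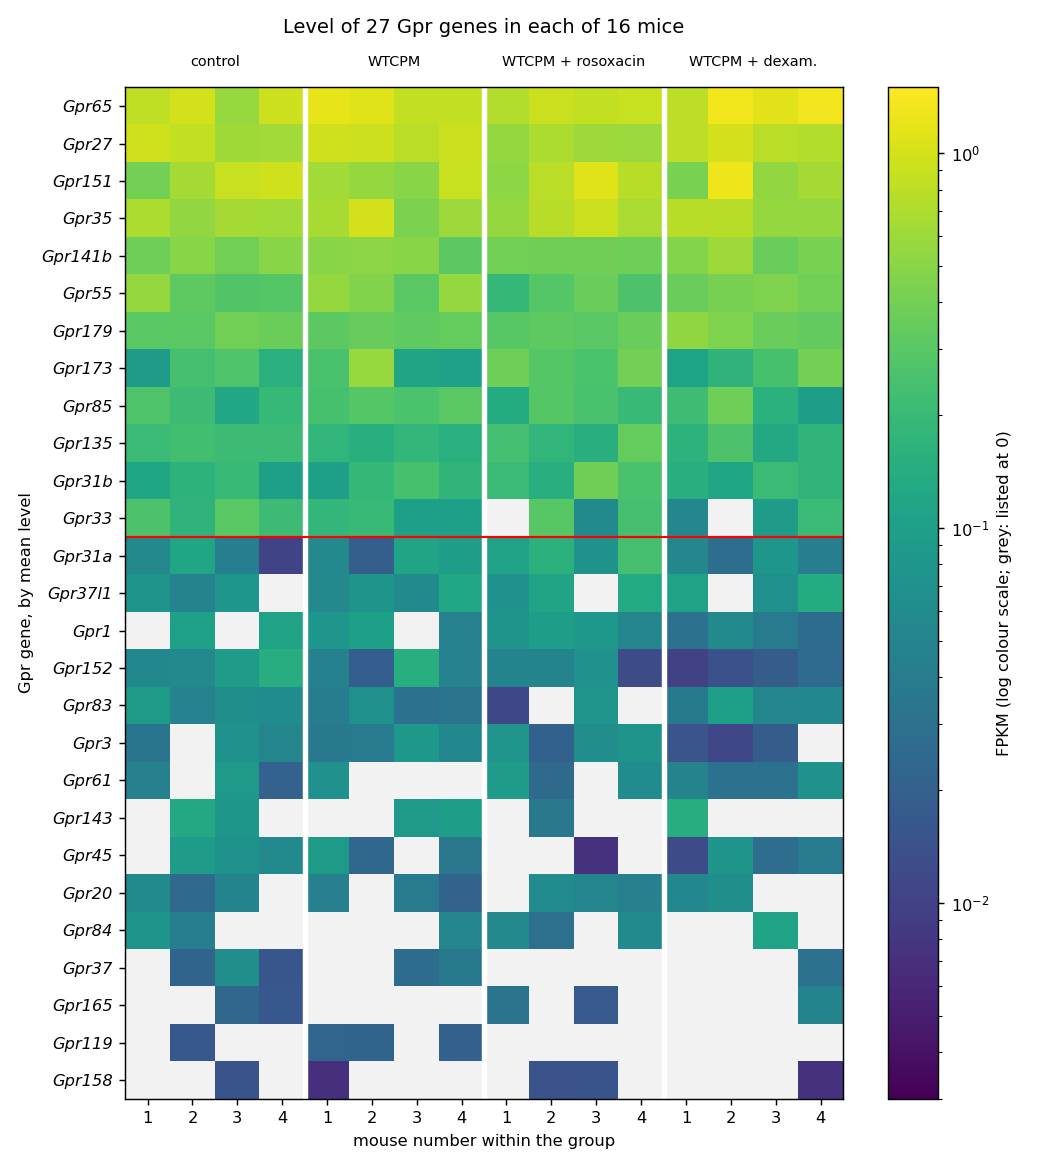
Level of 27 Gpr genes (rows, ordered by mean) in each of the 16 mice (columns, by group and mouse number), in FPKM on a log colour scale, with the palest cells listed at 0. The red line separates the 12 drawn genes with a mean of at least 0.1 FPKM, above it, from the 15 that were too low for the test, of which only Gpr31a and Gpr152 are above 0 in every mouse.

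The 29 members lie on 14 chromosomes, 5 of them on chromosome 1 and 4 on the X chromosome. GENCODE M21 gives 27 as protein coding, Gpr141b as a lincRNA and Gpr31a as a processed pseudogene. 15 have a single transcript, and in 7 the longest transcript has a single exon. The exons of 7 members overlap those of a gene on the opposite strand. The sources used here do not say whether reads were counted by strand, so RNA of such a pair cannot be told apart.

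Gpr65 is the proton-sensing receptor of the set, known from leukocytes, where acid outside the cell raises cyclic AMP through it. It lies on the plus strand of chromosome 12 (98268635 to 98276644, mm10) and had 18.1% of its 50-base windows in common with the antisense gene Gm47566. Its level was 0.827, 0.979, 0.571 and 0.943 FPKM in the 4 control mice and 1.19, 1.12, 0.850 and 0.857 in the 4 WTCPM mice. With rosoxacin it was 0.730, 0.922, 0.855 and 0.889 FPKM, and with dexamethasone 0.808, 1.32, 1.13 and 1.33. The dexamethasone group held the 2 highest of all 16 values, but its lowest mouse lay inside the ranges of the control and rosoxacin mice and below every WTCPM mouse. The group means were 0.830 ± 0.184, 1.00 ± 0.177, 0.849 ± 0.0841 and 1.15 ± 0.243 FPKM in that order (SD, n = 4 each). In whole lung, more cells of a type and more RNA per cell cannot be told apart, here and in every result below.

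5 members bind lipids or metabolites: Gpr35, Gpr55, Gpr31b, Gpr84 and Gpr119. Gpr35, which responds to the tryptophan metabolite kynurenic acid, lies on chromosome 1 (92950865 to 92986391, plus strand). It was 0.692, 0.551, 0.642 and 0.640 FPKM in control mice and 0.673, 0.970, 0.440 and 0.606 in WTCPM mice. It was 0.560, 0.771, 0.903 and 0.680 FPKM with rosoxacin and 0.764, 0.769, 0.557 and 0.564 with dexamethasone. All 4 groups overlapped, the WTCPM mice alone spanned the whole range, and the ratio of its highest to its lowest group mean was 1.15, the smallest of the 13 tested members.

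Gpr55, a receptor of lysophosphatidylinositol, lies on the minus strand of chromosome 1 (85938318 to 85961007). Its control values were 0.565, 0.318, 0.275 and 0.290 FPKM, and its WTCPM values 0.565, 0.463, 0.303 and 0.566. Its values with rosoxacin were 0.187, 0.289, 0.362 and 0.263 FPKM, and with dexamethasone 0.362, 0.419, 0.452 and 0.402. 3 of the 4 rosoxacin mice lay below every WTCPM mouse and the other stood above the lowest of them. The group means were 0.362 ± 0.137 for control, 0.474 ± 0.124 for WTCPM, 0.275 ± 0.0724 with rosoxacin and 0.409 ± 0.0373 with dexamethasone (SD, n = 4 each). The first control mouse stood apart from the other 3, which lay between 0.275 and 0.318 FPKM.

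Gpr31b is the mouse counterpart of a receptor for a hydroxy fatty acid made by lipoxygenase. It is a single exon on chromosome 17 (13051014 to 13052296, minus strand, mm10), and Gpr31a is a processed pseudogene on the same chromosome (7314888 to 7315846, minus strand). Over 960 aligned positions the transcripts are identical at 946, or 98.5%, with 10 mismatches and 4 gap positions. Of the 821 windows of 50 bases in the aligned coding part, 509 are identical in both genes and 312 hold a mismatch. The stretches below, read from the GENCODE M21 transcripts, are shown because they set how far a read of that length can tell the genes apart. The first pair comes from bases 55 to 104 of Gpr31b and 38 to 87 of Gpr31a and is identical. The second comes from bases 285 to 334 of Gpr31b and 268 to 317 of Gpr31a and holds 3 mismatches, which are in capitals.
Gpr31b: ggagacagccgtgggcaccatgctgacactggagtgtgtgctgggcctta
Gpr31a: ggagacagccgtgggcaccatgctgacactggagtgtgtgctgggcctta
Gpr31b: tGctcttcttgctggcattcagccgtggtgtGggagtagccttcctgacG
Gpr31a: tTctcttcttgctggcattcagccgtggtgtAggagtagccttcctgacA

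With the further copies AC166110.3 and Gm6553 counted, 87.6% of the windows of Gpr31b and 67.0% of those of Gpr31a occur in another transcript, so how reads were split among them is uncertain. Gpr31b was 0.117, 0.165, 0.198 and 0.100 FPKM in control mice and 0.0996, 0.190, 0.243 and 0.174 in WTCPM mice. It was 0.209, 0.151, 0.386 and 0.250 FPKM with rosoxacin and 0.146, 0.117, 0.205 and 0.176 with dexamethasone. The highest value of all was a rosoxacin mouse, and the groups overlapped. The pseudogene Gpr31a had its highest values in the same group, at 0.108, 0.163, 0.0728 and 0.238 FPKM, against 0.0108 to 0.118 in control, 0.0196 to 0.114 in WTCPM and 0.0287 to 0.0791 in dexamethasone mice. The rosoxacin values of Gpr31a still overlapped each of the other groups.

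The other lipid receptors were near the floor. Gpr84, a receptor of medium-chain fatty acids on myeloid cells, was above 0 in 7 mice and reached 0.108 FPKM, with 37.8% of its windows in common with the antisense gene Gm49482. Gpr119, known from pancreas and gut endocrine cells, was above 0 in 3 WTCPM mice, at 0.0226, 0.022 and 0.0201 FPKM, and in 1 control mouse, at 0.0163. It was listed at 0 in all 8 mice given a drug.

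3 members are grouped as other receptors of leukocytes, platelets and vessels: Gpr33, Gpr1 and Gpr20. Gpr33, a relative of the chemoattractant receptors, lies on chromosome 12 (52023003 to 52028063, minus strand). It was 0.262, 0.172, 0.305 and 0.215 FPKM in control mice and 0.185, 0.198, 0.101 and 0.100 in WTCPM mice. With rosoxacin it was 0, 0.295, 0.059 and 0.238 FPKM, and with dexamethasone 0.053, 0, 0.0907 and 0.206. The control mice were the only group with no value under 0.17, but a mouse in each other group reached into their range. The group means were 0.239 ± 0.0573, 0.146 ± 0.0527, 0.148 ± 0.141 and 0.0875 ± 0.0874 FPKM in that order (SD, n = 4 each). Gpr1, a chemerin receptor, averaged 0.0565 FPKM and Gpr20 averaged 0.0323 FPKM, both too low for the test.

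13 members are brain receptors, and 6 of them were tested. Gpr27, Gpr85 and Gpr173 form the family named SREB (super-conserved receptors expressed in brain). Gpr27 is a single exon on chromosome 6 (99692679 to 99695066, plus strand) with no 50-base window in any other transcript. It was 0.964, 0.845, 0.615 and 0.638 FPKM in control mice and 0.954, 0.941, 0.786 and 0.903 in WTCPM mice. With rosoxacin it was 0.562, 0.704, 0.599 and 0.594 FPKM, and with dexamethasone 0.806, 1.01, 0.790 and 0.728. All 4 rosoxacin mice lay below all 4 WTCPM mice and below all 4 dexamethasone mice, while the control mice overlapped each other group. The group means were 0.765 ± 0.168, 0.896 ± 0.0764, 0.615 ± 0.0616 and 0.833 ± 0.122 FPKM in that order (SD, n = 4 each).

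The other SREB genes did not share that order. Gpr85, on chromosome 6 (13834458 to 13839942, minus strand), was 0.273, 0.210, 0.123 and 0.194 FPKM in control mice and 0.248, 0.288, 0.258 and 0.302 in WTCPM mice. It was 0.138, 0.295, 0.252 and 0.197 FPKM with rosoxacin and 0.220, 0.378, 0.159 and 0.0974 with dexamethasone. The WTCPM mice were the closest together, inside the range of the dexamethasone mice. Gpr173, on the X chromosome (152343598 to 152368704, minus strand), was 0.0901, 0.240, 0.274 and 0.156 FPKM in control mice and 0.249, 0.582, 0.113 and 0.106 in WTCPM mice. It was 0.379, 0.295, 0.258 and 0.407 FPKM with rosoxacin and 0.111, 0.171, 0.243 and 0.406 with dexamethasone. The highest Gpr173 value was a WTCPM mouse whose group also held 2 of the lower values, and the groups overlapped.

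Gpr151, known from neurons of the habenula, came after Gpr65 and Gpr27 in level. It was 0.410, 0.644, 0.901 and 0.950 FPKM in control mice and 0.638, 0.566, 0.492 and 0.883 in WTCPM mice. It was 0.518, 0.789, 1.10 and 0.762 FPKM with rosoxacin and 0.432, 1.29, 0.542 and 0.643 with dexamethasone. Every group held both low and high mice. Gpr135, an orphan on chromosome 12 (72067976 to 72071125, minus strand), was 0.209, 0.227, 0.213 and 0.214 FPKM in control mice and 0.179, 0.150, 0.185 and 0.157 in WTCPM mice. All 4 WTCPM mice lay below all 4 control mice. With rosoxacin Gpr135 was 0.236, 0.178, 0.149 and 0.344 FPKM, and with dexamethasone 0.166, 0.266, 0.129 and 0.173, so that both drug groups spanned the control and the WTCPM values. The brain receptors too low for the test included Gpr37l1, Gpr152, Gpr83, Gpr45, Gpr37 and Gpr165.

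Of the class C receptors, which carry large extracellular domains, Gpr179 of retinal bipolar cells was the higher. Gpr179, on chromosome 11 (97332109 to 97352077, minus strand), was 0.302, 0.304, 0.395 and 0.368 FPKM in control mice and 0.311, 0.352, 0.328 and 0.343 in WTCPM mice. It was 0.297, 0.324, 0.309 and 0.359 FPKM with rosoxacin and 0.539, 0.455, 0.366 and 0.335 with dexamethasone. The 2 highest values were dexamethasone mice, and the other 2 of that group lay among the rest. Gpr158, a glycine receptor of brain, was the lowest member of all.

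The constitutively active receptors that raise cyclic AMP, Gpr3 and Gpr61, averaged 0.0409 and 0.0362 FPKM. Gpr143, an intracellular receptor of pigment cells whose loss causes ocular albinism, averaged 0.0354 FPKM and was above 0 in 6 mice. Gpr141b, in no role group, was 0.377, 0.496, 0.399 and 0.495 FPKM in control mice and 0.499, 0.512, 0.492 and 0.315 in WTCPM mice. This lincRNA lies on chromosome 13 (19727426 to 19732951, minus strand). It was 0.403, 0.394, 0.394 and 0.382 FPKM with rosoxacin and 0.474, 0.599, 0.367 and 0.429 with dexamethasone. The rosoxacin mice lay closest together, inside the range of each other group.

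**Figure D2:**
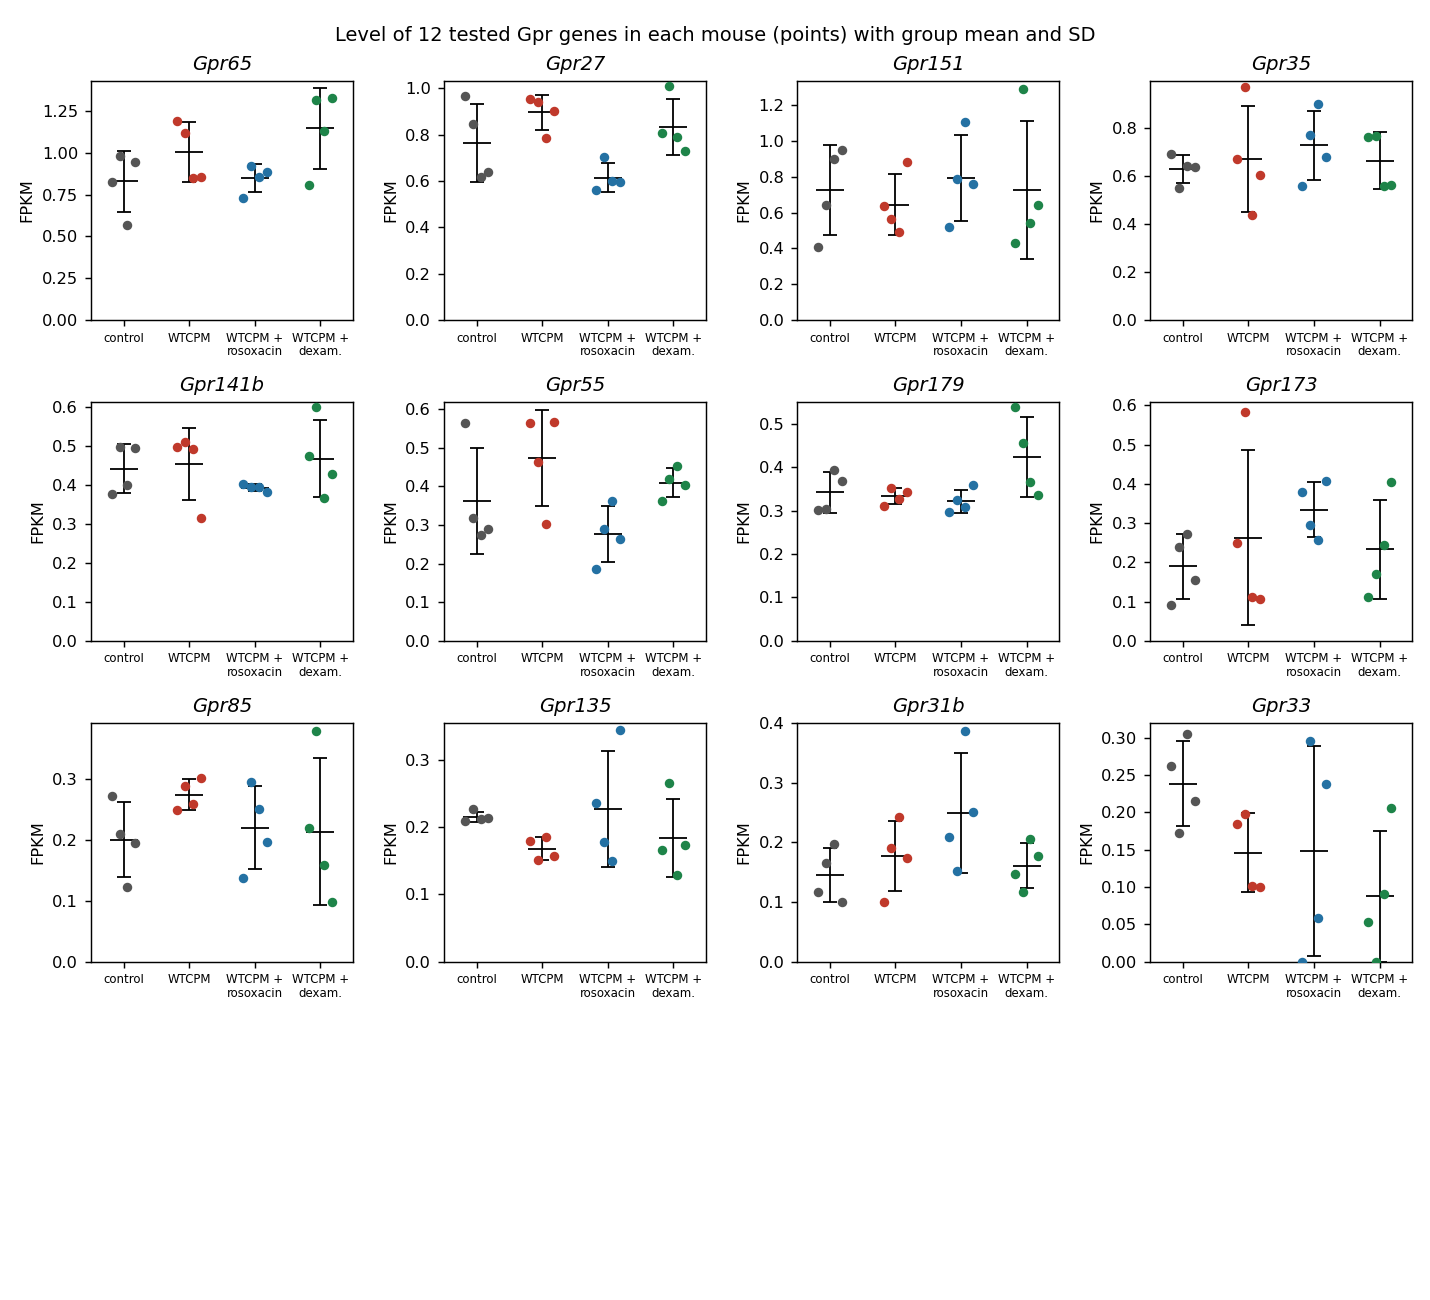
Level of 12 tested Gpr genes in FPKM (vertical axes from 0) in every mouse (points), by group, with the mean (long bar) and SD (error bar) of 4 mice. Gpr27 is the gene whose rosoxacin points all lie below the WTCPM and dexamethasone points, and Gpr135 the gene whose WTCPM points all lie below the control points.

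Group differences were tested with limma on log2(FPKM + 0.1) over the 2749 Ensembl genes whose mean reached 0.1 FPKM, with all 16 mice in 1 fit. A gene passed at a Benjamini-Hochberg adjusted p under 0.05 over all 2749. Log2 changes below are on that scale, which understates the change of low genes. The 6 comparisons share mice and are not independent of each other. None of the 13 tested Gpr genes passed in any of the 6 comparisons or in the F test for any difference among the 4 groups. In the F test 0.655% of all 2749 genes passed, and the smallest adjusted p among the members was 0.303, for Gpr27, followed by 0.378 for Gpr55 and 0.458 for Gpr65. At an unadjusted p under 0.05 the F test took 0 of 13 members and 17.1% of all genes. When assembled loci were included in the fit, 6367 of 27230 features passed the F test, and no member did.

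WTCPM against control asks what the dust did. No member passed, and 0% of all genes passed either. At an unadjusted p under 0.05 there were 0 of 13 members and 5.13% of all genes. The smallest p values belonged to Gpr55, with a log2 change of 0.33 ± 0.23 (SE), Gpr65 with 0.26 ± 0.19 and Gpr27 with 0.22 ± 0.17, and all had an adjusted p of 0.903. Each value rested in part on a single control mouse: Gpr55 was at 0.51 without control mouse 1, and without control mouse 3 Gpr65 was at 0.11 and Gpr27 at 0.13. The median change of the 13 members was 0.17 on the log2 scale, with 9 above 0 and 4 below, beside a median of 0.03 over all genes, of which 46.5% lay below 0. Median-of-ratios scaling and quantile normalisation each turned that split to 7 above and 6 below. Gpr135 was the member whose mice did not overlap, lower with WTCPM, where 1.16% of all genes were lower without overlap. Of the adipocyte marker list, Lep and Hcar1 of 7 genes had an identifier of their own, and their summed level was 0.366 to 1.9 FPKM in control mice, 0.0953 to 0.137 FPKM in WTCPM mice, 0.127 to 0.53 FPKM with rosoxacin and 0.231 to 0.488 FPKM with dexamethasone. Neither gene passed. Of the dendritic cell list, Xcr1 alone of 7 genes had an identifier of its own. It was 0.374 to 0.458 FPKM in control mice and 0.526 to 0.637 FPKM in WTCPM mice, without overlap, at a log2 change of 0.45 ± 0.19 (SE; adjusted p = 0.854). The part of fat tissue and of dendritic cells in the Gpr levels was not tested.

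Rosoxacin against WTCPM asks what the antibiotic did on top of dust. No member passed, beside 0.546% of all genes. The members with the smallest p were Gpr27, lower by a log2 change of -0.48 ± 0.17 (SE; 95% interval -0.83 to -0.13; adjusted p = 0.166), and Gpr55, lower by -0.61 ± 0.23 (interval -1.10 to -0.12; adjusted p = 0.2). Both had an unadjusted p under 0.05 in a comparison where 12.3% of all genes were lower at that level. Next came Gpr31b, with a log2 change of 0.32 ± 0.25 (adjusted p = 0.574), which was 0.17 without WTCPM mouse 1 and 0.15 without rosoxacin mouse 3. The dendritic cell marker Xcr1 was lower as well, at 0.301 to 0.469 FPKM in all 4 rosoxacin mice, below all 4 WTCPM mice. Its log2 change was -0.57 ± 0.19 (SE; adjusted p = 0.146), and the part of such cells in the Gpr27 and Gpr55 values was not tested.

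All genes together leaned the same way in this comparison. Their median change was -0.16, and relative to it Gpr27 stood at -0.32 and Gpr55 at -0.45. The members' median was -0.13, with 5 above 0 and 8 below, where 63.7% of all genes lay below 0. Gpr27 was the only member lower without overlap, as were 8.95% of all genes. When each mouse was rescaled to the same summed total (TPM), so that the higher FPKM totals of the rosoxacin mice were divided out, the median of all genes moved to -0.46 and both genes passed. Gpr27 was then at -0.89 (adjusted p = 0.0154) and Gpr55 at -0.97 (adjusted p = 0.0223), or -0.43 and -0.51 relative to that median, among 270 genes that passed in all. Under median-of-ratios scaling, which put the median of all genes at -0.01, Gpr27 was at -0.27 (adjusted p = 0.534) and Gpr55 at -0.43 (adjusted p = 0.458), and the members' split turned to 9 above and 4 below. With the library number as a covariate Gpr27 was at -0.35 (adjusted p = 0.437) and Gpr55 at -0.57 (adjusted p = 0.392).

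Dexamethasone against WTCPM asks the same of the glucocorticoid. No member and 0% of all genes passed. The unadjusted p was under 0.05 for 0 of 13 members and for 5.38% of all genes. The smallest p values were those of Gpr179, with a log2 change of 0.26 ± 0.18 (SE), Gpr85 with -0.33 ± 0.27 and Gpr33 with -0.48 ± 0.41, all with an adjusted p of 0.95. These values moved with single dexamethasone mice. Without mouse 1 Gpr179 was at 0.16. Without mouse 2 Gpr85 was at -0.56 and Gpr33 at -0.22, and without mouse 4 they were at -0.13 and -0.76. The members' median was 0.01 and that of all genes 0.00, and 7 members lay above 0 and 6 below, beside 49.5% of all genes below 0. Quantile normalisation gave 10 above and 3 below, and TPM gave 5 above and 8 below. The adipocyte list's summed level was higher with dexamethasone than in WTCPM mice without overlap. So was that of the list of eosinophils, basophils and mast cells, of which 5 of 7 genes had an identifier of their own. It was 0.435 to 0.632 FPKM with dexamethasone, 0.261 to 0.378 FPKM in WTCPM mice, 0.239 to 0.385 FPKM with rosoxacin and 0.257 to 0.486 FPKM in control mice. The neutrophil list's sum, given with the next comparison of dexamethasone, did not overlap either, and the part of these cells in the Gpr levels was not tested.

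Rosoxacin-treated mice were next set against unexposed mice. No member passed, beside 3.31% of all 2749 genes tested. The fit that included assembled loci passed 6498 of 27230 features and no member. At an unadjusted p under 0.05 there were 0 of 13 members where 19.3% of all genes stood. Gpr31b had a log2 change of 0.49 ± 0.25 (SE; adjusted p = 0.309), Gpr173 one of 0.62 ± 0.36 (adjusted p = 0.378) and Gpr33 one of -0.64 ± 0.41 (adjusted p = 0.421). The Gpr173 value differed between the lanes, at -0.15 on lane 1 alone and 1.28 on lane 2 alone. It was 0.04 with the library number as a covariate (adjusted p = 0.985 in limma), which cannot separate that number from rosoxacin. With that covariate Gpr33 was at -1.12 (adjusted p = 0.521) and Gpr31b at 0.75. Gpr33 was at -0.27 without rosoxacin mouse 1, where it is listed at 0, and Gpr31b at 0.31 without rosoxacin mouse 3. The members' median was 0.05 beside -0.11 over all genes. 8 members were above 0 and 5 below, beside 58.5% of all genes below 0, a split that quantile normalisation turned to 5 and 8 and TPM to 2 and 11.

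In dexamethasone-treated against unexposed mice, no member passed, beside 0.0364% of all genes. 2 members had an unadjusted p under 0.05, as did 4.98% of all genes. Gpr33 was lower, at -0.95 ± 0.41 (SE; interval -1.81 to -0.09; adjusted p = 0.882), and Gpr65 higher, at 0.42 ± 0.19 (interval 0.02 to 0.83; adjusted p = 0.953). Without control mouse 3 Gpr65 was at 0.27. The members' median was 0.10 beside 0.02 over all genes, with 10 above 0 and 3 below, where 47.8% of all genes lay below 0. Of the neutrophil marker list, 3 of 8 genes had an identifier of their own, and their summed level was 0.479 to 1.07 FPKM in control, 0.606 to 0.924 FPKM in WTCPM, 0.837 to 1.69 FPKM in rosoxacin and 1.29 to 2.39 FPKM in dexamethasone mice. Its gene Asprv1, a protease of granulocytes, was 0.179 ± 0.0362 FPKM in control mice and 0.644 ± 0.131 FPKM with dexamethasone (SD, n = 4 each), a log2 change of 1.41 ± 0.23 (SE) with an adjusted p of 0.0247 in limma. It was the single gene that passed here, and the call was lost in 12 of 30 other settings. The adjusted p was 0.164, 0.0695 and 0.0698 without control mouse 2, 3 or 4, and 0.161, 0.100 and 0.126 without dexamethasone mouse 1, 2 or 3 (limma). It was 0.0547 under median-of-ratios scaling, 0.0989 under quantile normalisation, 0.107 with assembled loci included, 0.22 in a fit of the 2 groups alone and 0.992 on lane 1 alone, and 0.0883 with the mouse number as a block. The part of neutrophils in the Gpr65 and Gpr33 values was not tested.

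Rosoxacin against dexamethasone compares the drugs on dust-exposed mice. No member passed, beside 4.26% of all 2749 genes tested. The fit that included assembled loci passed 8030 of 27230 features and no member. Gpr27 was lower with rosoxacin, at -0.38 ± 0.17 (SE; adjusted p = 0.207), and was the only member under an unadjusted p of 0.05, where 15.8% of all genes were lower. Gpr55 was at -0.46 ± 0.23 (adjusted p = 0.276) and Gpr65 at -0.37 ± 0.19 (adjusted p = 0.285). Of the granulocyte marker lists, 1 had summed levels without overlap and 1 did not. The summed level of the eosinophil, basophil and mast cell list, 0.239 to 0.385 FPKM with rosoxacin and 0.435 to 0.632 FPKM with dexamethasone, did not overlap. Its transcription factor gene Gata1 had a log2 change of -1.19 ± 0.36 (SE, adjusted p = 0.0653 in limma). The median of its 2 tested genes, Gata1 and Il5ra, was -0.66, so Il5ra changed less than Gata1, and neither passed. The neutrophil list's summed level overlapped, at 0.837 to 1.69 FPKM with rosoxacin and 1.29 to 2.39 FPKM with dexamethasone. Asprv1 was at -0.84 ± 0.23 (adjusted p = 0.0478), a call lost in 24 of 30 other settings. Leaving out any 1 mouse other than control mouse 1 or dexamethasone mouse 4 ended it, with an adjusted p of 0.0520 to 0.151 (limma). The part of such cells in the Gpr values was not tested. Relative to the median of all genes, -0.15, Gpr27 stood at -0.23, Gpr55 at -0.31 and Gpr65 at -0.23. Gpr27 was lower without overlap, as were 9.68% of all genes. After rescaling to TPM it passed, at -0.73 (adjusted p = 0.0273 in limma), or -0.32 relative to the median of all genes. It was then among 310 genes that passed in all. With the library number as a covariate Gpr27 was at -0.15 (adjusted p = 0.841) and Gpr65 at -0.64 (adjusted p = 0.416). The members' median was 0.08, with 7 above 0 and 6 below, beside 61% of all genes below 0, and TPM turned the split to 3 and 10.

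**Figure D3:**
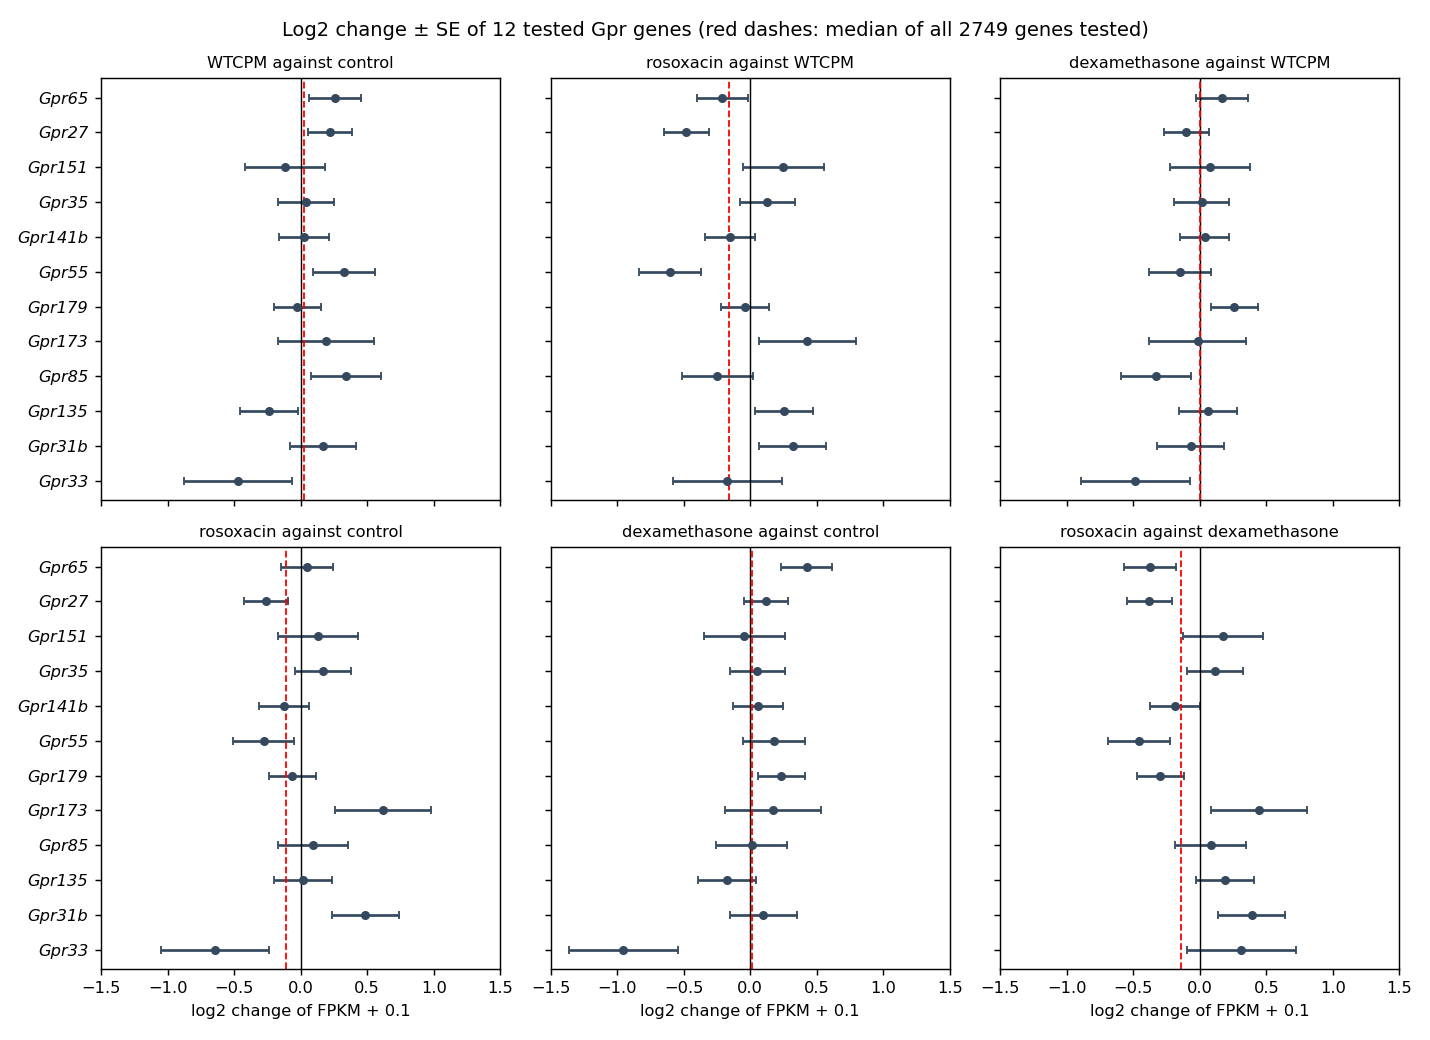
Log2 change of FPKM + 0.1 (horizontal axis) with its SE for 12 tested Gpr genes (rows) in the 6 comparisons (panels), with the median change of all 2749 genes as a red dashed line. Gpr27 at -0.48 and Gpr55 at -0.61 lie left of that line in rosoxacin against WTCPM, and Gpr33 at -0.95 lies farthest left in dexamethasone against control.

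A p above the threshold does not show that the levels were the same. Over the 78 changes (13 genes in 6 comparisons), the 95% interval reached a median of 0.46 to either side on the log2 scale, or 1.38-fold. It reached 0.35 for the most precise change and 0.86 for the least, or 1.28-fold and 1.81-fold. These are folds of FPKM + 0.1, which understate the fold of FPKM in low genes. With 4 mice a group, a change smaller than the reach of its own interval did not get even an unadjusted p under 0.05. The adjusted threshold asked for more. Gpr33 in dexamethasone against control, at -0.95 with an interval of -1.81 to -0.09, had an adjusted p of 0.882 (limma).

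How many reads stood behind a value was estimated from the steps between low FPKM values of single-exon genes, taking 1 step as 1 read. This put the depth at 17500000 to 27900000 read pairs a mouse, with a mean of 24400000 for control mice, 19900000 for WTCPM mice, 19500000 for rosoxacin mice and 22300000 for dexamethasone mice. The estimate is approximate, since 30.6% to 41.5% of values in the range of 1 to 10 reads fell within 0.02 of a whole number. On it, a mouse had a median of 78.4 reads on Gpr65 and 83.0 on Gpr27, 57.3 on Gpr55, 23.9 on Gpr135, 10.5 on Gpr33 and 9.69 on Gpr31b. Gpr119 never had more than 2.

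The spread between mice of a group, pooled over the groups, was smallest for Gpr27 at 14.8% of its mean and largest for Gpr33 at 59.1%. For the 8 tested genes with a single transcript it can be set beside the counting error of the estimated reads, with the reads of a pair counted as 1 event. Gpr151 stood out, with 37.7% between mice against 19.5% from counting, and Gpr55 had 26.5% against 18.7%. Gpr33 had 59.1% against 43.7% and Gpr65 18.9% against 16.0%. In the other 4, Gpr141b among them, the spread between mice was no larger than that of counting. Gpr27 had 14.8% against 15.5%, Gpr135 26.6% against 28.9% and Gpr31b 35.6% against 45.4%. Intervals of counting cover that error only. The SD of a 2-lane mean, taken from the 2 lanes of a mouse, was 54.4% for Gpr33, 18.8% for Gpr55, 17.3% for Gpr151 and 13.05% for Gpr65. It was 19.3% for Gpr27, 18.55% for Gpr141b, 22.7% for Gpr135 and 38.7% for Gpr31b.

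**Figure D4:**
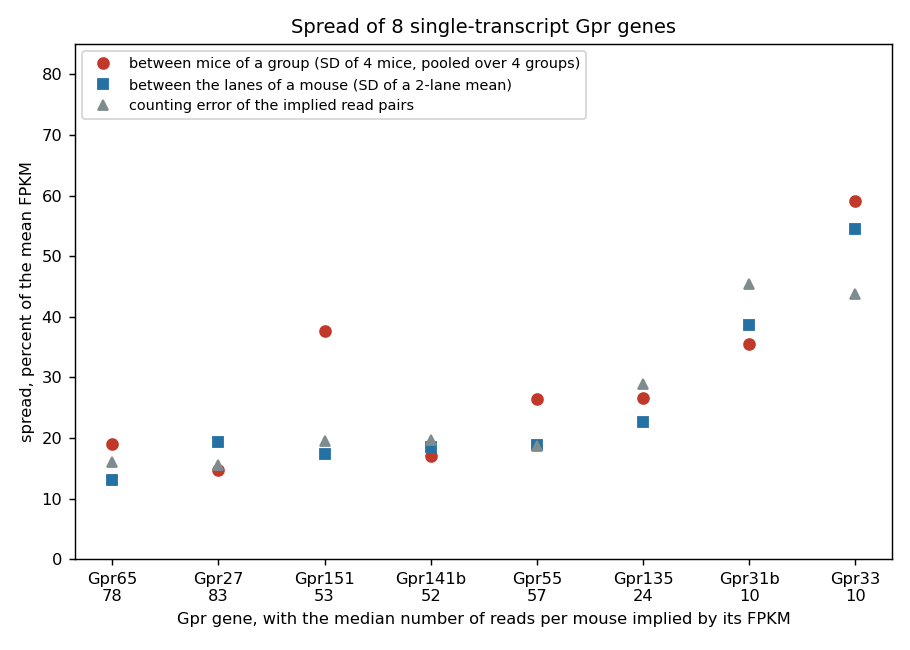
Spread of the 8 tested Gpr genes with a single transcript, as a percent of the mean FPKM (vertical axis), between mice of a group (circles), between the 2 lanes of a mouse (squares) and from counting the estimated reads (triangles), with the median number of reads per mouse under each gene. Gpr151 is the gene whose mice spread (37.7%) lies farthest above its counting error (19.5%).

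The 16 members below 0.1 FPKM had means from 0.0037 to 0.0814 FPKM and no mouse above 0.238 FPKM. When the limit on the mean was dropped and all 29 members were fitted among the genes above 0 in at least 3 mice, none passed, and the smallest adjusted p was 0.225, for Gpr119 in rosoxacin against WTCPM. Some low members had groups that did not overlap, and they are named here after their values were seen. Gpr3, a receptor known for holding oocytes in meiotic arrest, was 0.0155, 0.0113, 0.0187 and 0 FPKM with dexamethasone. This was below all 4 WTCPM mice (0.0367 to 0.0833) and below all 4 rosoxacin mice (0.0206 to 0.0764), while control mice ranged from 0 to 0.0713. Among the 8288 genes above 0 in at least 3 mice, 1.42% were lower without overlap with dexamethasone than in WTCPM, and 1.89% higher without overlap with rosoxacin than with dexamethasone. The exons of Gpr3 overlap those of Cd164l2 on the opposite strand.

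Gpr152, an orphan, was 0.00993, 0.0145, 0.0189 and 0.0266 FPKM with dexamethasone and 0.0548, 0.0565, 0.0899 and 0.146 in control mice. The groups did not overlap, and 0.869% of the 8288 genes were lower without overlap there. Gpr45, another orphan, was listed at 0 in 3 rosoxacin mice and was 0.00723 FPKM in the other, below the dexamethasone mice at 0.0126 to 0.0742, where 4.6% of the 8288 genes were lower without overlap. At this level values rest on few reads, a median of 7.72 a mouse for Gpr152. Gpr37, found on glia, was listed at 0 in all 4 rosoxacin mice and Gpr165 in all 4 WTCPM mice. Over all 16 mice, Gpr37 was above 0 in only 6 and Gpr165 in only 5. The share of all genes listed at 0 in a whole group was not computed.

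The partners of these receptors were read from 7 lists of 146 genes: G protein alpha subunits, beta and gamma subunits, Rgs proteins, receptor kinases and arrestins, adenylyl cyclases, adhesion receptors and receptors renamed after a ligand was found. Of these, 46 had an identifier of their own and 18 were tested. None of the 18 passed in any comparison. Gnat2, a G protein alpha subunit of cone cells, was 0.105 ± 0.0434 FPKM in control mice and 0.162 ± 0.026 after WTCPM, and 0.118 ± 0.0188 with rosoxacin and 0.160 ± 0.0332 with dexamethasone (SD, n = 4 each). Gng8, a gamma subunit, was 0.745 ± 0.198, 0.778 ± 0.173, 0.653 ± 0.0954 and 0.668 ± 0.0895 FPKM in that order, and Gng7 0.318 ± 0.045, 0.454 ± 0.107, 0.379 ± 0.0877 and 0.355 ± 0.0912.

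Rgs1, which curbs chemokine receptor signals in lymphocytes, was 0.418 ± 0.146 FPKM in control mice and 0.880 ± 0.284 after WTCPM, and 0.499 ± 0.0953 with rosoxacin and 0.729 ± 0.282 with dexamethasone (SD, n = 4 each). Its smallest adjusted p was 0.165, in the F test. Rgs17 was 0.221 ± 0.0863, 0.276 ± 0.041, 0.172 ± 0.07 and 0.173 ± 0.0712 FPKM in the same order. The adhesion receptor Adgrg5 came nearest to the threshold, at 0.734 ± 0.0948 FPKM with rosoxacin and 0.407 ± 0.0675 in control mice (SD, n = 4 each), a log2 change of 0.72 ± 0.20 (SE; adjusted p = 0.0542 in limma). It was 0.376 ± 0.112 FPKM after WTCPM and 0.426 ± 0.0575 with dexamethasone. Adgrb2 was 0.170 ± 0.128, 0.134 ± 0.0827, 0.160 ± 0.132 and 0.106 ± 0.105 FPKM from control to dexamethasone. Of the renamed receptors, S1pr5, for sphingosine phosphate, was 0.562 ± 0.184, 0.490 ± 0.143, 0.435 ± 0.141 and 0.645 ± 0.2 FPKM, and Mchr1, for melanin-concentrating hormone, 0.550 ± 0.146, 0.493 ± 0.0777, 0.478 ± 0.203 and 0.608 ± 0.14 in the same order.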

How the data were processed

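Lung total RNA, extracted with TRIzol, was sequenced on 2 lanes for each of 16 mice (32 samples, each 1 lane of a mouse). The authors deposited a table of FPKM for 186512 transcripts, and 32 files of single lanes hold its values again. The submitters' processing notes name the build mm10, HISAT and HISAT2 2.2.1, StringTie 2.1.5, SAMtools 1.12, FastQC and R 4.0.4. The sources used here give no order, settings or gene annotation for them.

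Transcripts were summed per Ensembl identifier and lanes averaged. Symbols came from a name table (25424 of 26305 identifiers) and coordinates from GENCODE M21 on mm10. Group differences were tested with limma 3.58.1 in R 4.3.3 (eBayes with trend) on log2(FPKM + 0.1), and p-values were Benjamini-Hochberg adjusted over 2749 genes. The procedure was also run on simulated data with independent normal noise, without values listed at 0 and without differing FPKM totals. That run therefore does not show how the calls behave under these features of the data. Named with values were the 8 highest members, the 3 smallest p per test, the 2 highest of each role group, the members on either side of the rule, and of each pathway list the called genes and the 2 highest tested. Of the marker lists, summed levels are given for those whose groups did not overlap in a comparison. The members, gene lists and tests were chosen with earlier results of these data known. Shared windows were counted by comparing the 50-base stretches of GENCODE M21 transcripts on both strands. Alternatives were other pseudocounts, filters and scalings, single lanes, 2 groups alone, no trend, the library number as a covariate, a replicate block and each mouse left out. Some named items are not reported here, though the counts and the fit include them. Figures were drawn with matplotlib 3.10.9.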

Additional observations from a re-analysis of the deposited data

Results flagged for a closer look

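In 52 groups of 4 mice (13 tested Gpr genes in 4 groups), 2 held a mouse whose gap to the others, as a share of the group's range, exceeded Dixon's 95% critical value. Chance flags about 1 in 20 groups. Gpr141b in WTCPM mice had 1 mouse at 0.315 FPKM against 0.492 to 0.512 in the other 3. Gpr55 in control mice had 1 mouse at 0.565 FPKM against 0.275 to 0.318 in the other 3.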

How the results depend on the processing

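The 7 counts of Gpr genes that passed and 18 log2 changes were recomputed under 30 other settings, 16 of which left out a mouse. Rescaling to TPM was the only setting that gave calls among the Gpr genes. It gave 2 in rosoxacin against WTCPM (Gpr27 at -0.89 and Gpr55 at -0.97), where 270 of all 2749 genes passed. In rosoxacin against dexamethasone it gave 1 (Gpr27 at -0.73), where 310 of all genes passed. It gave 1 in the F test (Gpr27, adjusted p = 0.0339), where 234 of all genes passed. In the other settings each count of Gpr genes was 0, and with a mouse left out it ranged from 0 to 0. Outside TPM the smallest adjusted p of a member was 0.0834, for Gpr27 in rosoxacin against WTCPM with assembled loci included in the fit. One change turned its sign: Gpr173 in rosoxacin against control was -0.15 on lane 1 alone. Genes below 0.2 FPKM, Gpr31b and Gpr33 among them, have no value at the stricter limit on the mean.

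With the mouse number as a replicate block the count was 0 in each test, and Gpr27 in rosoxacin against WTCPM had an adjusted p of 0.135. Whether the numbers pair the mice was not settled. Of 24 same-number pairs 4 had deviations correlated above 0.1 (range -0.156 to 0.304), and 7 of 16 mice correlated best with their own number. No chance level was computed for these values, so they cannot decide it. Low members had few reads, and each group had 4 mice. Changes under about 1.38-fold of FPKM + 0.1 mostly did not reach an unadjusted p under 0.05 in limma. Larger changes did not pass the adjusted threshold either, outside TPM.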
